A study of Rattus norvegicus and Mus musculus with 12 samples.

Results

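The expression of 10 genes was followed in rat and mouse chondrocytes with and without interleukin-1β (IL-1β). The genes were 6 ADAMTS metalloproteinases (Adamts1, Adamts2, Adamts4, Adamts5, Adamts7 and Adamts9) and the 4 tissue inhibitors of metalloproteinases (Timp1, Timp2, Timp3 and Timp4). They were found by symbol, and all 10 were present among the 19687 genes of the rat table and the 28603 genes of the mouse table. All 10 also passed the filter on low counts in both species, which left 13303 rat genes and 14774 mouse genes for testing.

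RNA-seq was performed on passage 1 chondrocytes isolated from the articular cartilage of newborn Sprague-Dawley (SD) rats and of newborn mice, with 3 libraries in each of 4 groups. The rat control (RC) and mouse control (MC) groups were unstimulated, and the rat model (RM) and mouse model (MM) groups received IL-1β at 20 ng/ml for 24 hours. The mouse libraries carried strain names from C57BL/6 to C57BL/9 that changed with the replicate number, whereas the methods of the study name C57BL/6 for all of them. The study describes the RNA as coming from 3 independent samples per group. How many animals stood behind a library was not given in the sources used here, so the p-values measure only the spread between the libraries. The tables of the species were normalised separately, so the species were compared only through the change from each species' own control.

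ADAMTS enzymes are secreted zinc proteases with thrombospondin motifs that cut matrix proteins outside the cell. ADAMTS4 and ADAMTS5 are the main aggrecanases of cartilage and cut the core protein of aggrecan, the proteoglycan that holds water in the tissue. The TIMP proteins bind and block metalloproteinases, and among them TIMP3 stays bound to the matrix and is the strongest inhibitor of the aggrecanases. IL-1β is an inflammatory cytokine used to model osteoarthritis in cultured chondrocytes.

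The rat promoter sequences of 4 members are shown because these genes moved in different directions in the rat cells. Each is the 250 bases before the RefSeq start of the gene in the rat assembly GRCr8, read 5′ to 3′ in the direction of the gene. Adamts1 lies at chr11:38427385-38427634 on the minus strand, Adamts9 at chr4:127019877-127020126 on the minus strand, Timp1 at chrX:3771123-3771372 on the minus strand and Timp3 at chr7:19459559-19459808 on the minus strand. Capitals mark matches, on either strand, to a GC box, a CCAAT box, a TATA box, the NF-κB consensus or, in Timp1, a variant of the AP-1 motif.
Adamts1: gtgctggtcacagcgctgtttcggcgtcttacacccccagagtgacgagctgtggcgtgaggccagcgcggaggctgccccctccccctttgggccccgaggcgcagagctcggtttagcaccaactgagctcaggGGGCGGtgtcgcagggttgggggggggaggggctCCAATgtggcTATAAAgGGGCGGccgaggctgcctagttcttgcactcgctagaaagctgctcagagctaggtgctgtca
Adamts9: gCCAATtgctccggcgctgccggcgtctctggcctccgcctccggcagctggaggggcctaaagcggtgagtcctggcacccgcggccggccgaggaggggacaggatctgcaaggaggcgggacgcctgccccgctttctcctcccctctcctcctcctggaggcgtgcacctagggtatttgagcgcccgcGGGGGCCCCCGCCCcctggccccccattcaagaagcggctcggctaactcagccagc
Timp1: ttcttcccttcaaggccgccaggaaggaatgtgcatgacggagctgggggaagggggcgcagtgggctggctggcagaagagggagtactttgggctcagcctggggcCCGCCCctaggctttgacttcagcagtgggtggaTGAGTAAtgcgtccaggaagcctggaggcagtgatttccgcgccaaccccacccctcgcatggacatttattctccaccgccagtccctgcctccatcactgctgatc
Timp3: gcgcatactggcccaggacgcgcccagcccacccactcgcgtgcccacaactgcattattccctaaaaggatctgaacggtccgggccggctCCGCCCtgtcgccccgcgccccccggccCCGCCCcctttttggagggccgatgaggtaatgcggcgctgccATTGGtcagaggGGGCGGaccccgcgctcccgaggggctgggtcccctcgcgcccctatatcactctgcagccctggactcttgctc

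RefSeq promoter windows were matched for 9 of the 10 members, all but Adamts5. The AP-1 motif TGANTCA, bound by Fos and Jun proteins, was in 6.34% of the 33469 rat windows of this length and in none of the 9 member windows. The Timp1 window held the related letters TGAGTAA, which begin 108 bases before its start and were chosen after the sequence was seen. They were in 2.38% of all windows. The NF-κB consensus was in 6.33% of all windows and, among the members, only in Adamts9, where it begins 57 bases before the start and overlaps a GC box. The GC box GGGCGG was in 30.5% of all windows, with 3 matches each in Timp3 and Adamts2, 2 in Adamts1 and 1 each in Adamts9, Timp1 and Timp2. The CCAAT box was in 34.0% and the TATAAA box in 12.9% of all windows. The GC content of the Timp3 window was 69.6%, and that of the Adamts1 window 65.2%, against a median of 51.2% over all windows. Among the 9 member windows it ran from 46.0% in Adamts7 to 75.6% in Adamts2. These matches describe letters and not binding.

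The libraries held 20169272 to 25903459 counted reads in the rat and 16841580 to 20048322 in the mouse. The 10 chondrocyte markers, among them Col2a1 and Acan, were all downregulated in both model groups. Their summed level fell from 5080–5720 FPKM (fragments per kilobase of exon, scaled to the reads of the library) in RC to 2010–2050 in RM, and from 2400–2450 in MC to 210–224 in MM. The 10 genes of an IL-1 response list, among them Lcn2, Ptgs2 and Cxcl1, were all upregulated in both. Of the 9 macrophage and leukocyte markers, 6 had a mean below 1 FPKM in each group, and the defining markers Ptprc and Adgre1 were among them. The summed level of the 9 rose from 19.7–22.6 to 31.8–34.8 FPKM in the rat and from 7.38–7.62 to 34.4–37.1 in the mouse, and its largest contributors were Cd14 and Cd68. The 4 of them tested split in the rat, where Cd14 and Cd68 rose and Csf1r (log2 fold change −1.20, adjusted P = 0.00269) and Lyz2 (−0.87, adjusted P = 0.00851) fell, and all 4 rose in the mouse. The 8 fibroblast markers split, with 2 higher, 2 lower and 4 not called in the rat and 3 higher and 5 lower in the mouse. Over all genes tested, 18.3% were called higher and 16.8% lower in the rat, and 37.4% and 37.7% in the mouse. Dcn rose in both species, and Postn rose in the rat and fell in the mouse. Their summed level, mostly Col1a1 and Col3a1 in the control groups, went from 3690–4210 to 2360–2480 FPKM in the rat and from 2290–2320 to 1500–1510 in the mouse. Endothelial markers summed to at most 0.793 FPKM and muscle markers to at most 7.44 FPKM in any library. In these bulk libraries, fewer cells of a type and less RNA per cell cannot be told apart. The part of these markers in the results on the members was not tested.

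In the rat, IL-1β was followed by upregulated expression of Adamts5, Adamts1 and Timp1, and by downregulated expression of Adamts2, Adamts4, Adamts9, Timp2, Timp3 and Timp4. Thus 3 of the 10 members were called higher, against 18.3% of all rat genes tested, and 6 were called lower, against 16.8%. Adamts7 did not pass the test. A call is an adjusted P under 0.05 in edgeR's quasi-likelihood test, with the Benjamini-Hochberg adjustment made over every gene in the test. In the mouse, 2 members (Adamts7 and Timp1) were called higher, against 37.4% of all genes tested, and 7 were called lower, against 37.7%. Among these 7, Timp4 passed the filter on low counts through MC alone. Adamts4 did not pass the test in the mouse. The even split of the mouse genes depended on the scaling, since library size alone gave 3697 genes higher and 8077 lower of 14774, with 2 members higher and 8 lower. Under the criteria of the study (an unadjusted P under 0.05, a change of 0.85 or more either way on the log2 scale and 1 FPKM in at least 1 library), the rat members called were Adamts5, Adamts9, Timp3 and Timp4, against 8.54% of all genes, and the mouse members called were Adamts7, Timp1 and Timp3, against 25.6%.

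**Figure D1:**
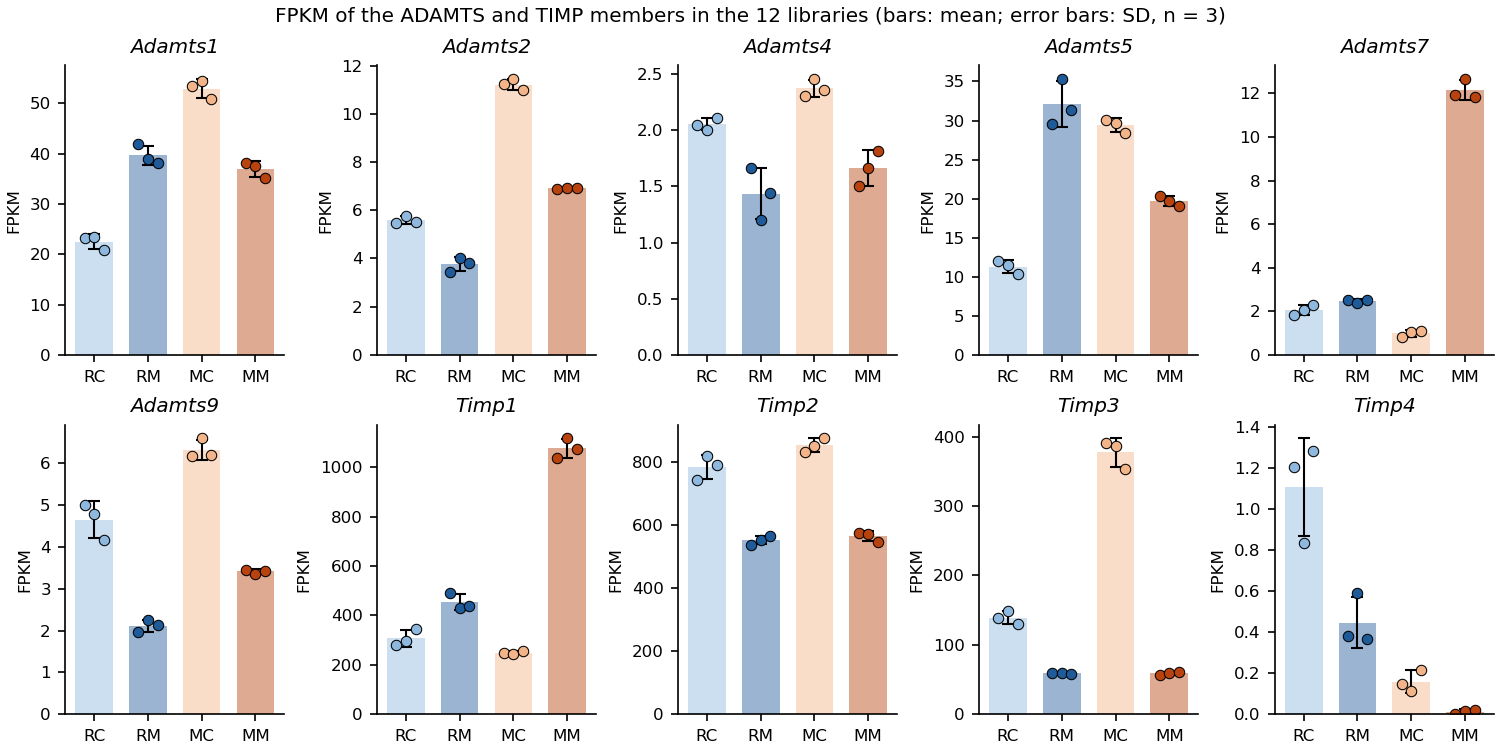
FPKM of each member (vertical axis, linear from 0) in each of the 12 libraries by group (RC, RM, MC, MM), with points for libraries, bars for means and error bars for the SD. Adamts5 was higher in RM than in RC and lower in MM than in MC, while Adamts7 rose from a mean of 0.995 to 12.2 FPKM in the mouse.

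Adamts5, the main aggrecanase of mouse cartilage, went in opposite directions in the 2 species. It stood at 12.04, 11.5 and 10.4 FPKM in RC and at 29.6, 35.3 and 31.3 in RM. Every RM library was above every RC library, and the log2 fold change was 1.49 (SE 0.0932, adjusted P = 1.14e-06). In the mouse it stood at 30.1, 29.7 and 28.4 FPKM in MC and at 20.4, 19.7 and 19.1 in MM. All MM libraries lay below all MC libraries, and the log2 fold change was −0.30 (SE 0.0330, adjusted P = 2.96e-12). The mouse gene (ENSMUSG00000022894) spans chr16:85856173-85901828 on the minus strand of GRCm38.

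Adamts1, which also cuts aggrecan and versican, changed in the same directions as Adamts5, up in the rat and down in the mouse. Its values were 23.2, 23.5 and 20.9 FPKM in RC and 41.9, 39.0 and 38.3 in RM. The RM libraries lay apart from the RC libraries, with a log2 fold change of 0.80 (SE 0.0753, adjusted P = 2.22e-05). In the mouse the values were 53.4, 54.6 and 50.8 FPKM in MC and 38.2, 37.6 and 35.2 in MM. The groups did not overlap and MM was lower, with a log2 fold change of −0.24 (SE 0.0344, adjusted P = 9.44e-09). The mouse gene (ENSMUSG00000022893) spans chr16:85793827-85803113, also on the minus strand, and 53059 bases lie between it and Adamts5. Both genes were called higher in the rat and lower in the mouse, a pattern that 7.29% of the 10912 genes tested in both species had.

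The falls of Adamts1 and Adamts5 in the mouse were small, and their size moved with the scaling of the libraries. Scaling by library size alone, in place of edgeR's trimmed mean of M-values (TMM), shifted the median log2 fold change by −0.28 over the mouse genes tested and by 0.016 over the rat genes. The mouse log2 fold changes here are therefore relative to a median gene at −0.016, and the raw FPKM show larger falls than the fitted values. The direction of both genes was the same under either scaling, and Adamts1 in the mouse ranged from −0.52 to −0.19 over all alternatives. The test of the difference between the species gave −1.79 for Adamts5 (SE 0.0976, adjusted P = 6.75e-11) and −1.04 for Adamts1 (SE 0.0834, adjusted P = 1.01e-08), as the mouse log2 fold change minus that of the rat.

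Adamts4, the other main aggrecanase, was low in all groups. It stood at 2.05, 2.00 and 2.11 FPKM in RC and at 1.66, 1.21 and 1.44 in RM. Every RM library was lower than every RC library, and the log2 fold change was −0.53 (SE 0.136, adjusted P = 0.0121). The mouse values were 2.31, 2.46 and 2.36 FPKM in MC and 1.50, 1.67 and 1.82 in MM. The MM libraries were also lower without overlap, but the fitted log2 fold change of −0.24 (95% interval −0.47 to −0.01) missed the threshold, with an adjusted P of 0.0563. It passed when library size alone was used (−0.52, adjusted P = 4.98e-05), so the call for this gene in the mouse depended on the scaling. The difference between the species was 0.30 (95% interval −0.05 to 0.65, adjusted P = 0.125).

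Adamts9, which cuts aggrecan and versican, was downregulated in both species. The 3 RC libraries ranged from 4.17 to 5.01 FPKM and the RM libraries from 1.96 to 2.25, with a log2 fold change of −1.15 (SE 0.0969, adjusted P = 1.03e-05). The MC libraries ranged from 6.18 to 6.60 FPKM and the MM libraries from 3.36 to 3.45, with a log2 fold change of −0.61 (SE 0.0458, adjusted P = 7.68e-19). The fall was larger in the rat, and the difference of 0.54 (SE 0.105) passed its test with an adjusted P of 0.000257. With library size alone it was 0.25 (adjusted P = 0.045).

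Adamts2, a procollagen N-proteinase that trims the ends of fibrillar procollagens and is not an aggrecanase, also fell in both. It went from 5.49–5.78 to 3.44–4.02 FPKM in the rat and from 11.0–11.4 to 6.87–6.93 in the mouse. The log2 fold changes were −0.59 (SE 0.0836, adjusted P = 0.000373) and −0.42 (SE 0.0426, adjusted P = 1.3e-13). The difference of 0.17 (95% interval −0.02 to 0.35, adjusted P = 0.116) did not pass its test, and it turned to −0.13 with library size alone.

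Adamts7, a protease known to cut cartilage oligomeric matrix protein (COMP), had the largest fold change of the 10 members in the mouse. Its values were 0.818, 1.06 and 1.11 FPKM in MC and 11.95, 12.7 and 11.8 in MM, from 88 to 125 counts per library in MC and 1299 to 1556 in MM. Each MM library was far above the MC libraries, with a log2 fold change of 3.89 (SE 0.0757, adjusted P = 1.74e-49). In the rat the values were 1.85, 2.06 and 2.28 FPKM in RC and 2.54, 2.38 and 2.51 in RM. The rat groups did not overlap either, but the log2 fold change of 0.25 (95% interval 0.01 to 0.49, adjusted P = 0.101) did not pass. The difference between the species was 3.64 (SE 0.141, adjusted P = 8.32e-13). The mouse gene (ENSMUSG00000032363) spans chr9:90163069-90208071 on the plus strand. It shares 122 exon bases, 1.94% of its own, with Tbc1d2b on the other strand, a gene that fell in the mouse (log2 fold change −0.43).

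Timp1, the inhibitor best known as a target of inflammatory signals, was upregulated in both species. Its values were 279, 296 and 345 FPKM in RC and 489.7, 431 and 439.6 in RM. The RM libraries were all higher, with a log2 fold change of 0.55 (SE 0.0895, adjusted P = 0.000913). In the mouse the values were 247, 243 and 255 FPKM in MC and 1039, 1117 and 1075 in MM. The mouse groups lay far apart, with a log2 fold change of 2.40 (SE 0.0303, adjusted P = 4.84e-60), and the rise was larger than in the rat by 1.85 (SE 0.0987, adjusted P = 5.06e-11). Timp1 was called higher in both species, as were 9.28% of the 10912 genes. The mouse gene (ENSMUSG00000001131) spans chrX:20870166-20874735 on the plus strand, inside the span of Syn1 but with no exon bases in common.

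Timp3, the matrix-bound inhibitor of ADAMTS4 and ADAMTS5, was downregulated in both species. It stood at 139, 149 and 129.7 FPKM in RC and at 59.5, 59.7 and 57.7 in RM. The RM libraries were all lower and close together, with a log2 fold change of −1.25 (SE 0.0730, adjusted P = 7.25e-07). The mouse values were 391, 387 and 354 FPKM in MC and 57.1, 58.8 and 61.2 in MM. MM was again lower without overlap, with a log2 fold change of −2.40 (SE 0.0295, adjusted P = 9.98e-61). The fall was larger in the mouse by a difference of −1.14 (SE 0.0814, adjusted P = 2.1e-09). The mouse gene (ENSMUSG00000020044) spans chr10:86300372-86349506 on the plus strand and shares 1733 exon bases, 21.3% of its own, with Syn3 on the other strand. Whether reads were counted by strand was not given in the sources used here. Syn3 was at 0.186 FPKM in MC and 0.0542 in MM.

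Timp2, an inhibitor that also takes part in the activation of pro-MMP2 at the cell surface, was the most abundant member in RC, RM and MC. It went from 743–820 to 537–565 FPKM in the rat and from 832–875 to 546–575 in the mouse. The log2 fold changes were −0.52 (SE 0.0613, adjusted P = 0.000104) and −0.32 (SE 0.0244, adjusted P = 1.9e-18). Their difference of 0.20 passed the test (SE 0.0694, adjusted P = 0.0166) but turned to −0.09 and was lost with library size alone.

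Timp4 was the lowest member. The RC libraries held 51, 33 and 46 counts (1.20, 0.835 and 1.28 FPKM) and the RM libraries 13, 26 and 15, with a log2 fold change of −1.31 (SE 0.304, adjusted P = 0.00755). The MC libraries held 15, 11 and 23 counts and the MM libraries 0, 2 and 2. All MM libraries were below the MC libraries, and the fitted log2 fold change was −3.36 (SE 0.623, adjusted P = 2.55e-06), a value whose size at such counts is imprecise. The difference between the species, −2.07 (SE 0.780, adjusted P = 0.0286), was lost without RM replicate 2 (adjusted P = 0.0682), MC replicate 3 (0.0684) or MM replicate 1 (0.111). With Adamts2, Adamts9, Timp2 and Timp3, Timp4 made 5 of 10 members that were called lower in both species, as were 10.1% of the 10912 genes. In the mouse Timp4 passed the filter on low counts through MC alone, so it could only be called lower there.

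**Figure D2:**
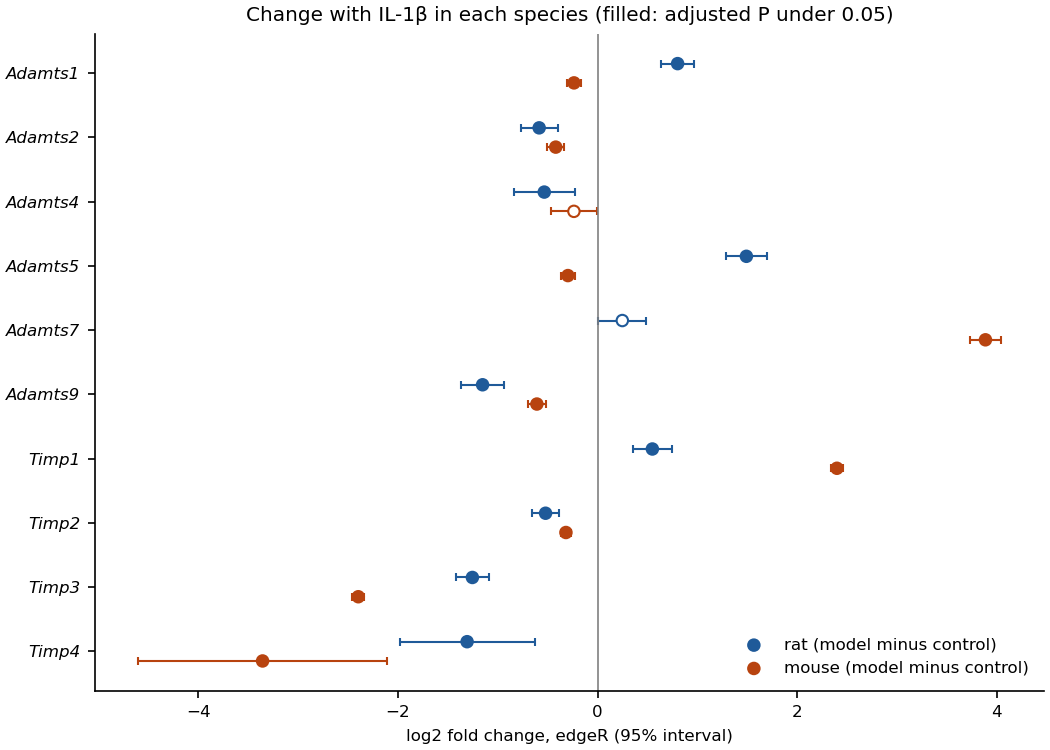
Log2 fold change of each member (horizontal axis, model minus control, with 95% interval) in rat and mouse, filled where the adjusted P was under 0.05. Adamts1 and Adamts5 lie on opposite sides of 0 in the species, and Adamts7 at 3.89 and Timp3 at −2.40 mark the extremes of the mouse values apart from the low-count Timp4 at −3.36.

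The change from control differed between the species for 8 of the 10 members, with 4 larger and 4 smaller in the mouse, against 63.8% of all genes tested for this difference. The pair without a called difference was Adamts2 and Adamts4. A called difference was therefore common among all genes as well.

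The order of the levels within each group was compared by FPKM, a scale per length. Timp2, Timp1 and Timp3 were the 3 highest members in every group, followed by Adamts1 and then Adamts5. Timp2 was first in RC, RM and MC, whereas Timp1 was first in MM with a mean of 1077 FPKM. Timp3 stood above Timp1 only in MC. Adamts7 moved from the ninth place in MC to the sixth in MM, above Adamts2, Adamts9 and Adamts4. Neighbours in the order did not overlap between libraries, except Adamts7 and Adamts4 in RC, at means of 2.06 and 2.05 FPKM.

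The composition of the inhibitors changed in both species. Timp1 made up 23.4–27.3% of the summed TIMP FPKM in RC and 41.2–45.1% in RM, and 16.4–17.2% in MC and 62.2–63.9% in MM. The share of Timp3 fell from 10.2–11.96% to 5.43–5.72% in the rat and from 23.9–26.6% to 3.37–3.64% in the mouse. Timp2 went from 62.4–64.8% to 49.4–53.2% and from 56.6–59.0% to 32.5–34.4%. None of these ranges overlapped between a model group and its control. Among the ADAMTS members, Adamts5 took 22.8–24.3% of the summed FPKM in RC and 36.5–42.0% in RM, but 28.1–28.9% in MC and 24.1–24.7% in MM. Adamts7 took 0.786–1.11% in MC and 14.5–15.5% in MM.

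**Figure D3:**
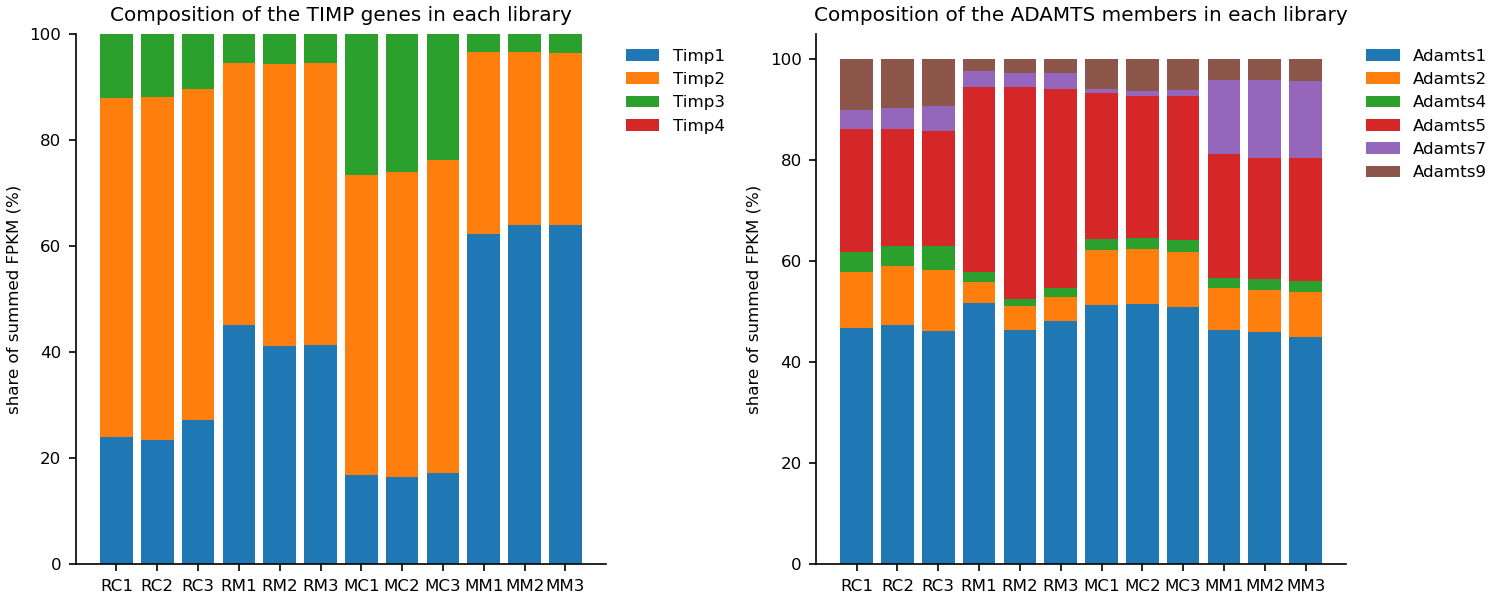
Share of each gene in the summed FPKM (vertical axis, percent) of the 4 TIMP genes and of the 6 ADAMTS members in each of the 12 libraries. Timp1 widens in both model groups, to 62.2–63.9% in MM, and Adamts5 widens in RM but not in MM, while Timp4 is too small to be seen.

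The levels of inhibitor and protease were also set against each other within each library, which does not depend on the scaling between libraries. The ratio of Timp3 to Adamts5 FPKM was 11.5–12.9 in RC and 1.69–2.01 in RM, and 12.5–13.0 in MC and 2.80–3.21 in MM. It was lower in every model library of both species. In the rat the smaller ratio came with less Timp3 and more Adamts5, and in the mouse with less of both genes. The ratio of Timp1 to Timp3 rose from 1.99–2.66 to 7.21–8.23 in the rat and from 0.627–0.720 to 17.6–19.0 in the mouse. The ratio of the 4 summed TIMP genes to the 6 summed ADAMTS members fell from 23.4–27.9 to 12.4–13.4 in the rat and rose from 14.0–14.9 to 20.3–21.5 in the mouse. Timp1 was the only TIMP gene that rose in either species. In the mouse its mean went from 248 to 1077 FPKM, while Timp2 went from 853 to 564 and Timp3 from 377 to 59.0. The rise of the summed ratio in the mouse thus came with Timp1 alone among the inhibitors. The summed ADAMTS level went from 45.3–49.7 to 79.5–84.1 FPKM in the rat and from 99.8–106 to 78.3–82.3 in the mouse. These ratios were chosen after the values were seen and were not tested. An exact permutation test of 3 against 3 libraries cannot give a two-sided p below 0.1.

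**Figure D4:**
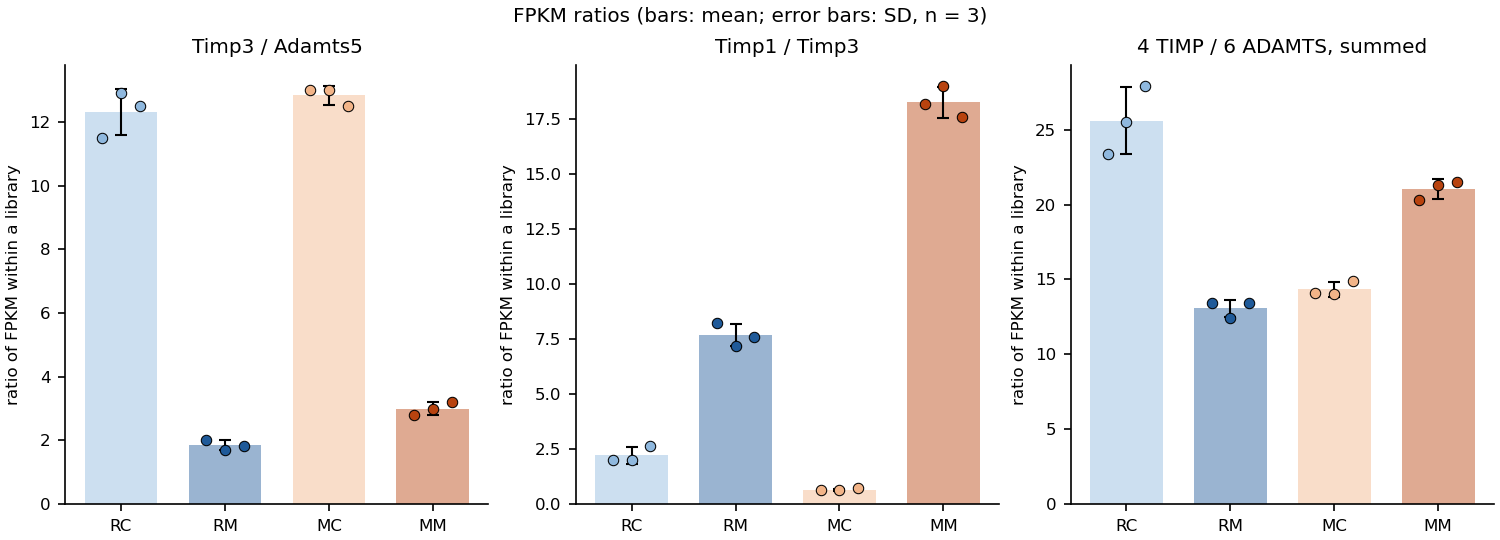
Ratios of FPKM within a library (vertical axes, linear from 0) for Timp3 to Adamts5, Timp1 to Timp3, and all 4 TIMP to all 6 ADAMTS members, with points for libraries, bars for means and error bars for the SD (n = 3). The first ratio is lower in both model groups. The last moves in opposite directions in the species, with Timp1 the only TIMP gene that rose in either.

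The genes whose pattern over all 12 libraries was nearest to that of a member were found among the 10912 genes tested in both species, by the root mean square (RMS) difference of log2 CPM (counts scaled to the size of the library) centred within each species. For Timp1 they were Ldha, Jmjd6 and Spidr, with RMS differences of 0.043, 0.070 and 0.079. Ldha, a subunit of lactate dehydrogenase, had log2 fold changes of 0.57 and 2.48 in rat and mouse. For Timp3 they were Comp, Eno3 and Bambi, at 0.079, 0.104 and 0.106, and Comp encodes the COMP protein of cartilage. For Adamts5 they were Rerg, Orc1 and Pik3r1, at 0.139, 0.143 and 0.144. For Adamts4 they were Arvcf, Nckap5l and Gtpbp2, at 0.080, 0.092 and 0.104.

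Most of the other ADAMTS genes were expressed at low levels, with a mean below 1 FPKM for 8 of 13 in RC and 9 of 13 in MC, but Adamts10 was above 5 of the 6 ADAMTS members in RC. Of these 13 genes, 9 were tested in the rat, where 3 were called higher, 3 lower and 3 neither, and 9 in the mouse, where 1 was higher, 7 lower and 1 neither. Their median log2 fold change was −0.29 in the rat, against 0.005 over all genes tested, and −2.09 in the mouse, against −0.016. In the mouse, Adamts15, Adamts17 and Adamts18 held 4, 9 and 4 counts in the MM libraries together, and Adamts8 held 6 in MC. These genes passed the filter on low counts only through the group where they were higher. Their direction was thus set by the filter, which limits the mouse counts and median of this list. Over all genes tested the shares called higher and lower were 18.3% and 16.8% in the rat and 37.4% and 37.7% in the mouse. Adamts10, which binds fibrillin, stood at 16.7 and 17.6 FPKM in RC and RM (log2 fold change 0.06, adjusted P = 0.531) and fell from 7.23 to 2.37 in the mouse (−1.33, adjusted P = 7.06e-28). Adamts12, which like ADAMTS7 can cut COMP, fell in both (−0.89, adjusted P = 0.000127, and −2.62, adjusted P = 2.84e-27). Adamts14, a procollagen N-proteinase like ADAMTS2, also fell in both (−1.22, adjusted P = 0.000204, and −1.74, adjusted P = 3.11e-21). Among the ADAMTS-like genes, which lack the protease domain, 3 of 3 tested were lower in the rat, and 4 of 6 were lower and 1 higher in the mouse. Adamtsl3 changed by −0.58 and −2.21 and Adamtsl4 by −0.99 and −1.09 on the log2 scale. Adamtsl1 was not analysed here in the rat and fell by 3.08 on the log2 scale in the mouse.

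**Figure D5:**
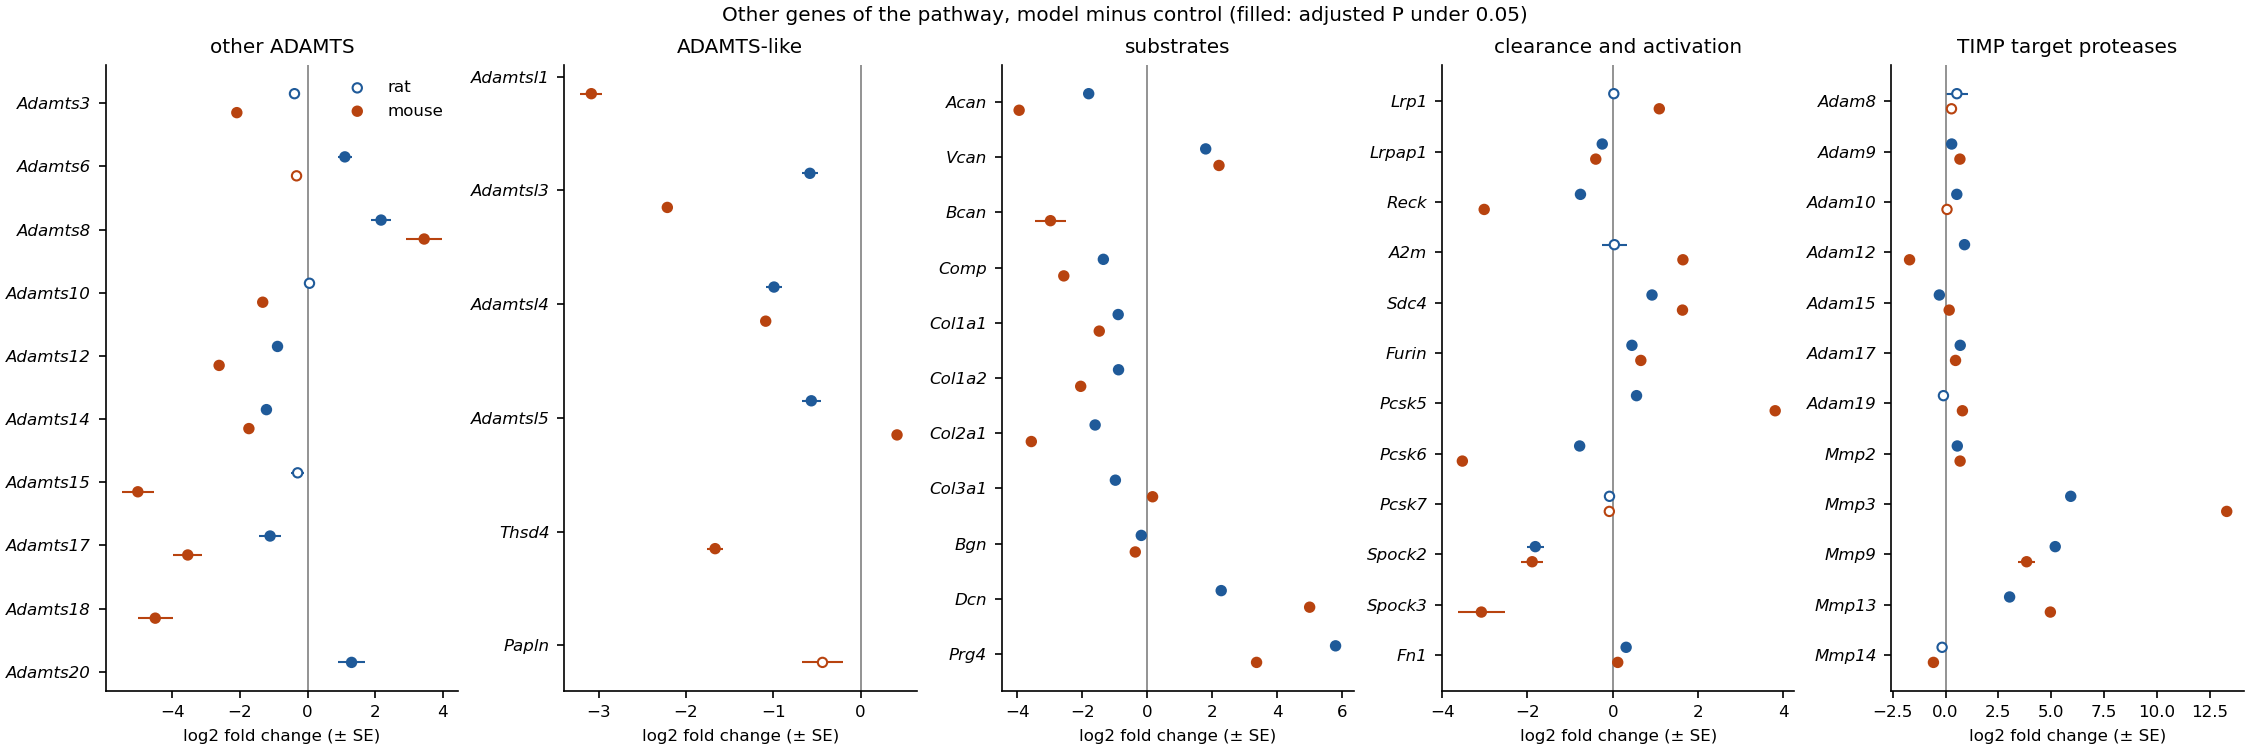
Log2 fold change (horizontal axes, model minus control, with SE) of the other tested genes of the pathway in rat and mouse, by list, filled where the adjusted P was under 0.05. Acan and Col2a1 lie left of 0 and Dcn, Mmp3 and Mmp13 right of 0 in both species, while Adamts10, Lrp1 and Reck differ in size between them.

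Most substrates of the proteases were downregulated. Of the substrate list, 7 of 10 tested genes fell and 3 rose in the rat, against 16.8% and 18.3% of all genes. In the mouse 7 of 11 fell and 4 rose, against 37.7% and 37.4%. Acan, which encodes aggrecan and is named here for its role although the rule did not select it, went from 529 to 153 FPKM in the rat (log2 fold change −1.80, adjusted P = 3.11e-07) and from 78.3 to 4.22 in the mouse (−3.94, adjusted P = 2.14e-62). Col2a1, the main collagen of cartilage, changed by −1.60 and −3.57 on the log2 scale, and Col1a2, a collagen of fibrous tissue, by −0.88 and −2.05. Dcn, which encodes the small proteoglycan decorin, rose by 2.27 in the rat and 4.99 in the mouse. Vcan, which encodes versican and was named after its values were seen, also rose in both, by 1.80 (adjusted P = 6.33e-07) and 2.21 (adjusted P = 1.06e-59). So did Prg4, likewise named after its values were seen, by 5.79 (adjusted P = 1.5e-11) in the rat and 3.36 (adjusted P = 1.56e-62) in the mouse.

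Genes that clear or activate the proteases moved both ways. In the rat 4 of 11 rose and 4 fell, against 18.3% and 16.8% of all genes. In the mouse 6 of 12 rose and 5 fell, against 37.4% and 37.7%, so the mouse counts were near the shares over all genes. Reck, a membrane-anchored inhibitor of metalloproteinases, went from 49.4 to 29.6 FPKM in the rat (log2 fold change −0.76, adjusted P = 2.92e-05) and from 95.7 to 9.77 in the mouse (−3.02, adjusted P = 6.42e-60). Sdc4, a heparan sulfate proteoglycan involved in the activation of ADAMTS5, rose in both (0.92, adjusted P = 3.12e-06, and 1.64, adjusted P = 6.23e-52). Pcsk5, a proprotein convertase, rose by 0.56 in the rat and by 3.81 in the mouse. Lrp1, the endocytic receptor that removes ADAMTS5 and TIMP3 from the matrix, was named after its values were seen. It stood at 177 and 182 FPKM in RC and RM (log2 fold change 0.03, 95% interval −0.16 to 0.21) and rose from 223 to 391 in the mouse (1.09, adjusted P = 2.77e-48).

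Of a list of 12 other metalloproteinases, 8 rose and 1 fell in the rat, where 18.3% of all genes were called higher. Whether TIMP proteins inhibit each of the 12 was not examined. In the mouse 8 rose and 2 fell, where 37.4% were called higher. Mmp3 and Mmp13, a stromelysin and a collagenase, rose in both, by 5.92 and 3.03 on the log2 scale in the rat and by 13.30 and 4.96 in the mouse. Mmp2, a gelatinase, rose by 0.55 in the rat (adjusted P = 0.000386) and 0.69 in the mouse (adjusted P = 7.32e-31). The summed FPKM of the 12 went from 572–597 to 1640–1770 in the rat and from 434–448 to 9000–9140 in the mouse, while the summed TIMP level went from 1162–1266 to 1045–1087 and from 1470–1484 to 1672–1746. Most of the sum of the 12 in MM was Mmp3, whose mean went from 0.954 FPKM in MC to 7967 in MM. In the rat the mean of Mmp3 went from 13.3 to 817 FPKM.

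Exons of Adamts9 and Timp4 also share bases with a gene on the other strand in the mouse annotation. Adamts9 shares 1381 (9.18% of its own) with A730049H05Rik, at 0.0669 FPKM in MC and 0.112 in MM. Timp4 shares 90 (1.53%) with Syn2, at 0.0220 and 0.00479 FPKM.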

How the data were processed

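RNA-seq was performed on 12 chondrocyte libraries, 3 for each of RC, RM, MC and MM. The authors deposited, for each species, whole-number read counts per gene and FPKM values computed from them. The submitters' processing notes name HISAT2, HTSeq 0.11.2 and the builds GRCm38 and Rnor_6.0. Whether reads were counted by strand was not given in the sources used here. Per the file headers, the tables held no columns of the authors' own comparisons. Mouse FPKM values implied, for all 10 members, the merged exon lengths of GENCODE M21.

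Counts were filtered with filterByExpr, scaled by TMM and tested within each species with edgeR 4.0.16 (quasi-likelihood, Benjamini-Hochberg adjustment, threshold 0.05) in R 4.3.3. A gene could pass the filter through a single group, and if near 0 counts in the other it could be called in only that direction. In the mouse this applies to Timp4 and to some genes of the other lists. For the difference between the species, 1 model was fitted over the 12 libraries and the 10912 gene symbols tested in both, with scaling computed within each species. FPKM are given as mean and range or SD, n = 3, and intervals are at 95%. The precision rests on 20169272 to 25903459 counts per rat library and 16841580 to 20048322 per mouse library. Alternatives were library size alone, DESeq2 1.42.0, limma 3.58.1 on log2(FPKM + 1) or log2(FPKM + 0.1), other filters, the replicate number as a block, and leaving out each library. No pair of libraries in a group agreed within sampling noise.

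Counts were simulated with 200 genes changed in each species by 1.5 on the log2 scale. edgeR recovered 97.96% of 196 such genes tested among 13295 in the rat simulation, with 4.48% of calls false. It recovered 99.48% of 194 among 14657 in the mouse, with 5.85% of calls false. For the difference it recovered 97.13% of 314 among 10900, with 3.79% of calls false. The simulation gave all genes of a species the same dispersion and changed few genes, in random directions. These rates therefore do not cover the smaller member changes or the mouse calls that moved with the scaling.

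The members and the gene lists were chosen with earlier results of these data known. All 10 members are named. From each other list the counts are given, and up to 3 genes are named, chosen by smallest adjusted P in the rat or the mouse among genes that reached a mean of 1 FPKM in some group. Other genes of these lists are also named, namely Acan, Vcan, Prg4, Col1a1, Col3a1, Comp, Lrp1, Furin, Pcsk6, Adamts3, Adamts8, Adamts15, Adamts17, Adamts18, Postn and the leukocyte markers. They were chosen after their values were seen or for their role. For Adamts4, Adamts5, Timp1 and Timp3 the 3 genes nearest in pattern are named. Promoter windows came from RefSeq (GRCr8). That build differs from the one used for counting, so no rat gene coordinates were joined to the counts.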

Additional observations from a re-analysis of the deposited data

Results flagged for a closer look

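The test of the difference between the species, given as the mouse log2 fold change minus that of the rat in edgeR, passed the threshold for 8 members. It was −1.039 for Adamts1, −1.788 for Adamts5, −1.143 for Timp3 and −2.073 for Timp4, where the mouse value was the lower. It was 3.638 for Adamts7, 1.849 for Timp1, 0.543 for Adamts9 and 0.204 for Timp2, where the mouse value was the higher. Of all genes tested, 63.8% passed. The species also differed in table, annotation and spread between replicates, with a biological coefficient of variation of 0.106 in the rat and 0.0318 in the mouse. Species and experiment cannot be told apart.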

How the results depend on the processing

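Of 430 values of single members under alternatives, 420 kept their direction and side of the threshold, 5 newly passed it, 3 lost it and 2 turned in sign. With library size alone, the difference between the species became −0.13 for Adamts2 and −0.091 for Timp2 (adjusted P = 0.248), and the genes called for that difference became 2189 higher and 5398 lower in the mouse, which follows from the shift of the mouse median by −0.28. With limma on log2(FPKM + 1) and on log2(FPKM + 0.1), the mouse genes called higher numbered 3639 and 3635 in place of 5521, and those called lower 7975 and 7969 in place of 5564. Library size alone in edgeR gave similar counts, 3697 and 8077, and FPKM are likewise scaled to the reads of the library. Adamts4 in the mouse, not called in edgeR, passed with library size alone (−0.52), with both limma fits (−0.34 and −0.49) and without MM replicate 3 (adjusted P = 0.0359), and its difference between the species passed without RM replicate 1 (adjusted P = 0.0366). The difference for Timp4 was lost without RM replicate 2, MC replicate 3 or MM replicate 1. Leaving out 1 library gave 1735 to 3243 rat genes called higher and 1568 to 3008 called lower. The difference for Adamts9 was 0.25 with library size alone. Low counts limit Timp4, at 4 counts in the 3 MM libraries together.

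The values gave no sign that replicate numbers paired the samples, although 3 libraries per group cannot show that they did not. The deviations of same-numbered libraries correlated at 0.024, −0.098 and 0.085 in the rat and at 0.001, 0.015 and 0.005 in the mouse, and not every library correlated best with its own number. With the replicate number as a block, 2436 rat genes were called higher and 2098 lower, 5503 and 5544 in the mouse, and 3340 and 3468 for the difference, and no call of a member changed.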

Other observations

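The ADAMTS genes can be set in order by their known substrates, a grouping made after the values were seen and not tested. Of the procollagen N-proteinases, Adamts2 and Adamts14 fell in both species and Adamts3 in the mouse, with Adamts2 at −0.59 and −0.42, Adamts14 at −1.22 and −1.74 and Adamts3 at −0.39 (adjusted P = 0.0997, not called) and −2.09 on the log2 scale in rat and mouse. Of the fibrillar collagens on the substrate list, Col1a1, Col1a2 and Col2a1 fell in both species. Col3a1 fell in the rat (−0.98) and was called higher in the mouse (0.16, adjusted P = 5.8e-09), a value smaller than the shift of the mouse median with the scaling, while its mean was 339 FPKM in MC and 313 in MM. Adamts7 and Adamts12, whose proteins can both cut COMP, split in the mouse. There Adamts7 rose by 3.89 and Adamts12 fell by 2.62, and Comp itself went from 290.1 to 40.3 FPKM. In the rat Adamts12 fell by 0.89 and Comp went from 271 to 107 FPKM.

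Among the convertases that remove the propeptide of ADAMTS enzymes, Furin rose by 0.45 in the rat and 0.66 in the mouse on the log2 scale, whereas the changes of Pcsk6 were −0.78 and −3.53. Pcsk6 went from 15.7 to 1.12 FPKM in the mouse and Pcsk5 from 0.608 to 7.04, so that their order by FPKM was exchanged. In the rat Pcsk6 stood at 14.5 and 8.57 FPKM and Pcsk5 at 3.92 and 5.83, with Pcsk6 the higher in both groups.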
